A study of Mus musculus with 4 samples.

Results

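The liver releases hormone-like proteins, called hepatokines, that carry its metabolic state to other organs. The mRNA levels of 10 such genes were followed in the livers of mice on a Western diet plus sugar water (WDSW). The members were taken by name, with earlier results of these data known, as the rows of the count table whose identifiers map to Fgf21, Igfbp1, Igfbp2, Gdf15, Ahsg, Fetub, Lect2, Selenop, Inhbe and Rbp4. All 10 were found among the 46603 gene identifiers of the table, and all 10 passed the filter on low counts that left 13001 genes to test. No member passed the test across all genes, so what follows gives values in each mouse and fitted differences with their errors.

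Total liver RNA was sequenced from 4 mice, all labelled male. The labels give 2 as controls (numbered 1 and 2) and the other 2, numbered 3 and 4, as HuR hKO, which stands for hepatocyte-specific HuR knockout. All 4 were HuR flox/flox mice on the C57BL/6J background, all received an AAV8 virus by the tail vein, and all ate WDSW for 4 weeks (42% of energy as fat, 0.1% cholesterol, and water with 23.1 g/L fructose and 18.9 g/L glucose). In the HuR hKO mice the virus carried Cre under the thyroxine-binding globulin promoter, which is active in hepatocytes, and in the control mice it carried GFP under the same promoter. The mice were matched for age, which was not stated in the sources used here, nor was the time since the last meal. HuR, the product of Elavl1, is an RNA-binding protein that attaches to AU-rich stretches of mRNAs and changes their stability and translation.

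The libraries held 13032095 (mouse 1), 13615761 (mouse 2), 13806773 (mouse 3) and 19715577 (mouse 4) counts on genes. Elavl1, the targeted gene, was counted 377 times in mouse 1 and 347 times in mouse 2, against 541 times in mouse 3 and 648 times in mouse 4. As counts per 1000000 of the TMM-scaled library size (CPM) these were 28.4 and 25.9 against 37.7 and 34.4, so the targeted gene was not lower in either library labelled HuR hKO. The groups are therefore called by their labels throughout, and every direction given is between libraries so labelled. The study itself reports significantly lower HuR mRNA and protein in HuR hKO livers, and loss of HuR from hepatocytes by immunofluorescence. The counts here cover the whole gene in whole liver and do not separate exons or cell types. The reason for the difference from the study was not tested. The summed level of 7 hepatocyte markers lay between 56807 and 64349 CPM in the 4 livers. By fitted level, all 8 endothelial markers were on the higher side in the libraries labelled HuR hKO (summed CPM of 266 and 229 in control, 298 and 265 in HuR hKO). So were 7 of 8 stellate cell and fibroblast markers (212 and 216 against 233 and 290), beside 50.3% of all genes tested. None of these markers had an adjusted p under 0.05, and the endothelial sum of mouse 4 was no higher than that of mouse 1. The B cell markers summed to 4.06 CPM in mouse 1 and to between 18.5 and 31.3 in the others, and cholangiocyte markers ranged from 27.5 to 52.6. Pancreas markers summed to 9.63 and 9.63 CPM against 12.7 and 20.2, nearly all from Cela1 (9.63 and 9.63 against 11.4 and 20.2). Cpa1, Cpb1, Pnlip and Prss2 were counted only in mouse 3, with 4, 4, 9 and 1 counts. Macrophage markers summed to 167 and 173 CPM in control against 195 and 180 in HuR hKO, and T and NK cell markers and neutrophil markers stayed between 1.54 and 3.66 CPM in every liver. Ly6g (neutrophil) and Amy2b (pancreas) had no count in any library. The part of these cell types in the member differences was not tested. In whole liver, a smaller number of cells of a type and less RNA per cell cannot be told apart.

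As background, the members act through different receptors and on different tissues. Fibroblast growth factor 21 (Fgf21) is a hormone of fasting, protein shortage and sugar intake, which acts through an FGF receptor together with its co-receptor beta-Klotho (Klb). Growth differentiation factor 15 (Gdf15) is a stress-induced cytokine that reduces food intake through a receptor in the hindbrain, and inhibin beta E (Inhbe) is the liver-enriched subunit of activin E, which acts on fat tissue. Transcription of Fgf21, Gdf15 and Inhbe is known to be raised through the integrated stress response, in which the transcription factor ATF4 and its partners bind DNA elements that combine a C/EBP and an ATF sequence. Insulin-like growth factor binding protein 1 (Igfbp1) binds IGFs and is one of the genes most strongly held down by insulin, and Igfbp2 is a second binding protein of the same family. Ahsg (fetuin-A) and Fetub (fetuin-B) are plasma proteins of the type 3 cystatin family, Lect2 (leukocyte cell-derived chemotaxin 2) is a plasma protein linked to fatty liver and insulin resistance in muscle, Selenop (selenoprotein P) carries selenium from the liver to other organs, and Rbp4 carries retinol in plasma in a complex with transthyretin (Ttr).

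The promoters of 3 members are shown because they hold the known elements of these control pathways. The sequences are those of RefSeq on GRCm38.p6, from 250 bases before to 50 bases after the start site and read in the direction of the gene, and RefSeq gave 16 such windows for the 10 members. Capitals mark each match, on either strand, to the C/EBP-ATF response element TTGCATCA, the E-box CACGTG, the TATA box TATAAA or the insulin response sequence TNTTTTG, where N is any base; the letters were chosen after the sequences had been read.
Fgf21, chr7:45615441-45615740, minus strand: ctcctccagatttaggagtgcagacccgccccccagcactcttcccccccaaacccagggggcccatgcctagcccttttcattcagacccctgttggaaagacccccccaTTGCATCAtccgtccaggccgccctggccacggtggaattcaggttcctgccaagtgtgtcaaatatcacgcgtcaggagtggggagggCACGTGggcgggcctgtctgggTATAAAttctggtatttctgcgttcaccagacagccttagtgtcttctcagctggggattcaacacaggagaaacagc
Inhbe, chr10:127351799-127352098, minus strand: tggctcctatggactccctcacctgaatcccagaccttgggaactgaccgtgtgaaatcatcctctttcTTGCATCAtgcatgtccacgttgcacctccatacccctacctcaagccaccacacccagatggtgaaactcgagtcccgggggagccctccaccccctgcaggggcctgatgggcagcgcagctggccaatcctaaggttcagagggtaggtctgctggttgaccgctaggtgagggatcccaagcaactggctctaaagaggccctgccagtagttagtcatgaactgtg
Igfbp1, chr11:7197537-7197836, plus strand: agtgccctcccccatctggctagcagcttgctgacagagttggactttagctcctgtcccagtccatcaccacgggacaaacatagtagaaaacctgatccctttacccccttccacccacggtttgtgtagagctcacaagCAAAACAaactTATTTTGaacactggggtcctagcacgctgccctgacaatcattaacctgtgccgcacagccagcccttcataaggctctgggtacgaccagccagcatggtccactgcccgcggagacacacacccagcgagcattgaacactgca
In Fgf21 the C/EBP-ATF element begins 139 bases before the start site, the E-box 50 bases before and the TATA box 28 bases before. Inhbe holds the same C/EBP-ATF letters 181 bases before its start. That element occurs in 0.895% of the 32851 promoter windows of the table, and Fgf21 and Inhbe were the 2 members that had it. Igfbp1 holds 2 matches to the insulin response sequence, on opposite strands and beginning 108 and 97 bases before the start site, a sequence found in 18.6% of all windows. None of the 4 motifs was found in the windows of Ahsg and Lect2, and an E-box, present in 7.15% of all windows, was also found in 1 window each of Gdf15 and Igfbp2. A TATA box, present in 13.6% of windows, was also found in Fetub, Rbp4 and Selenop, and the insulin response sequence in 1 further window each of Rbp4 and Selenop. A match of letters is a description of the sequence and shows no binding.

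AU-rich pentamers (ATTTA) of the 3′ UTR are shown because HuR is known for binding AU-rich RNA. In the GENCODE M21 transcript taken for each gene, the 134-base 3′ UTR of Fgf21 held 4 ATTTA pentamers, the 150-base one of Gdf15 held 5, the 529-base one of Igfbp1 held 4 and the 797-base one of Selenop held 4. Inhbe had 3 in 1400 bases, Igfbp2 had 1 in 312 and Rbp4 had 1 in 242, while none occurred in Ahsg, Fetub and Lect2. So 7 of 10 members held at least 1, beside 67.0% of the 11864 tested genes with a 3′ UTR in this annotation. The median 3′ UTR was 277 bases long for the members and 1014 for those tested genes. Pooled over all their 3′ UTR bases, the members held 5.12 pentamers per kilobase and those tested genes 1.81. The short 3′ UTRs of Fgf21 and Gdf15 were the densest among the members. One site each is given, with the pentamer of that site in capitals and coordinates on GRCm38. The stretches of Fgf21 and Gdf15 also hold neighbouring pentamers, which are left in small letters.
Fgf21, chr7:45613939-45613967, minus strand: ggtatttatcttATTTAtttattttagtt
Gdf15, chr8:70629470-70629498, minus strand: atttatatttgtATTTAttaatattatta
Igfbp1, chr11:7202161-7202189, plus strand: aagctggtttgtATTTAttcactgtaagt
The longer nonamer TTATTTATT occurred in Fgf21 and Inhbe, that is in 2 of 10 members, and in 7.18% of tested genes.

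The members covered a wide range of levels. Compared per length, as CPM per kilobase of exon (RPKM), Rbp4 had the highest mean level over the 4 livers (2468 RPKM, rank 26 of 21624 protein-coding genes), followed by Ahsg (2016 RPKM, rank 30) and Selenop (1520 RPKM, rank 41). Igfbp2 (316 RPKM), Fetub (187 RPKM) and Lect2 (147 RPKM) formed a middle group of plasma proteins. Igfbp1 (19.0 RPKM), Inhbe (11.5 RPKM), Gdf15 (5.33 RPKM) and Fgf21 (2.30 RPKM), the members best known as inducible, were at the bottom, and Fgf21 ranked 7053. The ranges of the 4 livers overlapped between the neighbours Rbp4 and Ahsg, Ahsg and Selenop, Fetub and Lect2, and Inhbe and Gdf15, and did not overlap between the other neighbours in this order. The 10 members together took 1.32% and 1.22% of the counts of the control libraries and 1.29% and 1.45% of those labelled HuR hKO, most of it from Ahsg, Selenop and Rbp4.

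**Figure D1:**
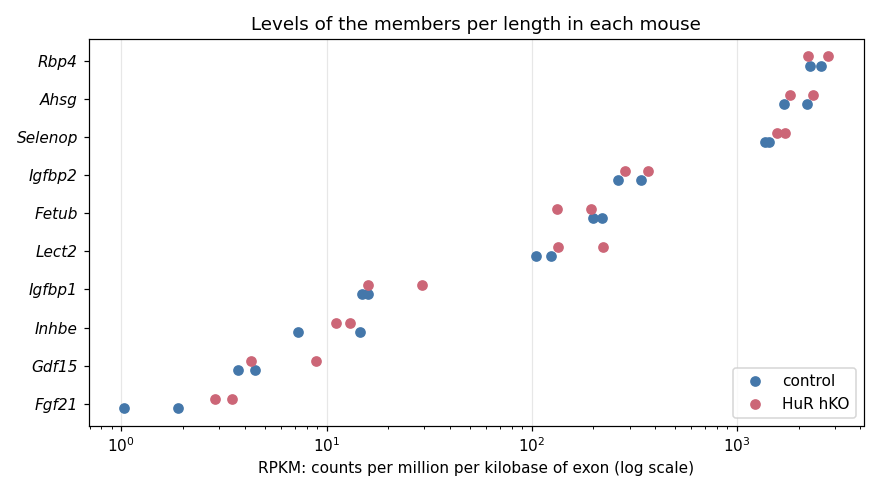
Level of each member per length (x axis, RPKM, log scale), 1 point for each mouse, control in blue below and HuR hKO in red above. Rbp4, Ahsg and Selenop lie at 1367 RPKM or more in every liver, and Fgf21 lies between 1.03 and 3.45 RPKM.

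To compare the groups, counts were tested with edgeR's quasi-likelihood test and p-values adjusted by the Benjamini-Hochberg method over all 13001 genes; an exact permutation test of 2 against 2 mice cannot give a p below 0.333. None of the 10 members had an adjusted p under 0.05, and their adjusted p-values lay between 0.574 and 0.975. Over all genes, 3 were called at that threshold (0.0231%). At an unadjusted p under 0.05, 2 members (Fgf21 and Lect2) were on the higher side in the libraries labelled HuR hKO, beside 4.04% of all genes, and none was on the lower side, beside 3.39%. By the study's rule (at least 1.8-fold, unadjusted p under 0.05), 1 member (Fgf21) qualified, beside 2.12% of all genes. The fitted level was higher in the libraries labelled HuR hKO for 9 of 10 members and lower for Fetub, with a median log2 fold change of 0.19 against 0.0020 over all genes, of which 50.3% were on the higher side. Both libraries labelled HuR hKO lay above both controls for 4 members (Fgf21, Igfbp1, Lect2 and Selenop), as they did for 19.3% of all genes, and below them for 1 member (Fetub), as for 18.8%. Mouse 4, whose library was 1.51 times the size of the smallest, had the highest CPM of the 4 livers for 6 of 10 members, beside 26.7% of all genes tested, and mouse 1 had the highest for none, beside 29.1%.

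**Figure D2:**
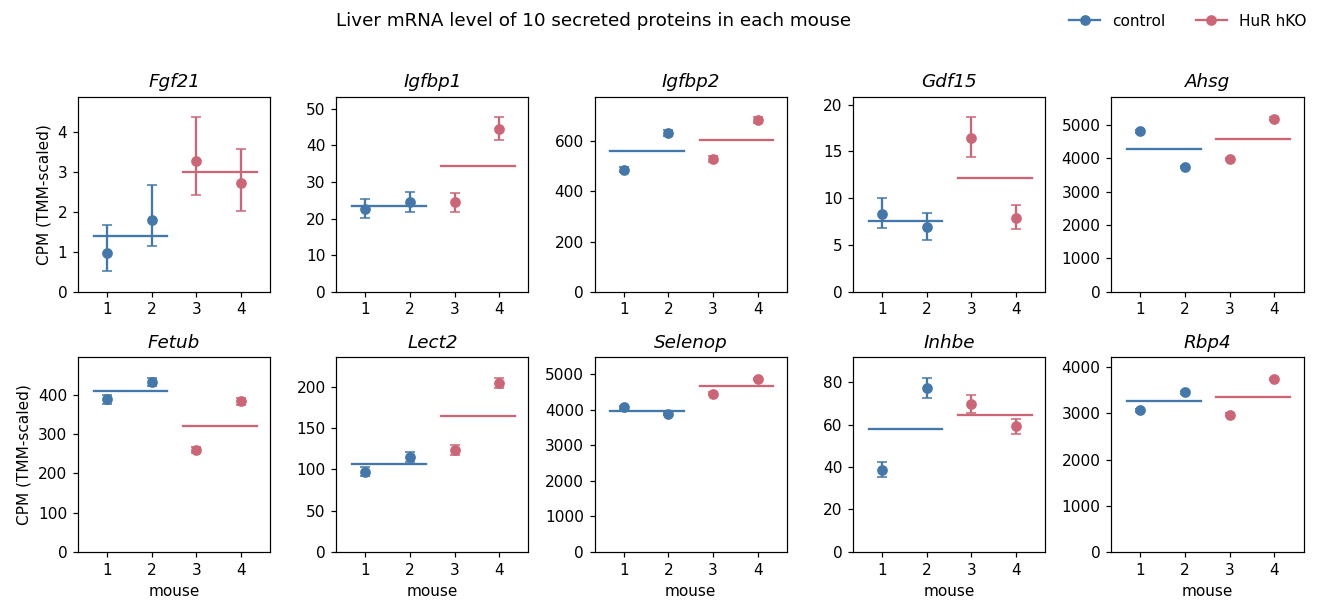
CPM of each member in each mouse (y axes start at 0), control in blue and HuR hKO in red, with exact 95% Poisson intervals of the counts and horizontal lines at the group means. The groups stand apart for Fgf21, Lect2, Selenop and Fetub, Igfbp1 of mouse 3 sits at the level of mouse 2, and single mice stand off for Igfbp1 (mouse 4), Gdf15 (mouse 3) and Inhbe (mouse 1).

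Among the stress-induced hormones, Fgf21 (ENSMUSG00000030827, chr7:45613886-45615490, minus strand) had 13 and 24 counts in the control livers and 47 and 51 in those labelled HuR hKO. These correspond to 0.978 and 1.79 CPM against 3.28 and 2.71 CPM, with exact 95% Poisson intervals of 0.521 to 1.67, 1.15 to 2.67, 2.41 to 4.36 and 2.02 to 3.56. The groups did not overlap, but the intervals of mouse 2 and of both mice labelled HuR hKO did, and the control livers differed 1.83-fold from each other. The fitted level was 2.15 times the control level (log2 fold change 1.10, SE 0.40, 95% interval of the fold 1.14 to 4.03, adjusted p = 0.574). The study reports Fgf21 as increased in HuR hKO mice after a longer time on WDSW. That feeding time is not covered by the libraries here, so the results were not compared. In these libraries the log2 fold change of Fgf21 was 0.72 without mouse 1 and 1.60 without mouse 2. Of the 4 fits that left out a mouse, only the one without mouse 2 kept the unadjusted p of Fgf21 under 0.05, and DESeq2's Wald test did not. Gdf15 (ENSMUSG00000038508, chr8:70629393-70632456, minus strand) had 110 and 92 counts in the controls and 235 and 149 in the libraries labelled HuR hKO, which is 8.28 and 6.87 CPM against 16.4 and 7.91 CPM. Mouse 3 alone was high, about 2.07-fold over mouse 4, whose level lay between those of the 2 controls. The fitted log2 fold change of 0.67 (SE 0.33, adjusted p = 0.684) was 0.05 without mouse 3 and 1.11 without mouse 4. Inhbe (ENSMUSG00000047492, chr10:127348857-127354411, minus strand) had 514 and 1035 counts in the controls against 997 and 1113, or 38.7 and 77.3 CPM against 69.6 and 59.1 CPM. The controls differed 2.00-fold and enclosed both livers labelled HuR hKO. Its fitted log2 fold change was 0.15 (SE 0.28, adjusted p = 0.932), −0.28 without mouse 1 and 0.73 without mouse 2. Inhbe lies inside an antisense gene of the annotation (Gm47200), and the use of strand in the authors' counting was not given in the sources used here.

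Of the 2 members with the C/EBP-ATF letters in their promoters, the groups were thus apart for Fgf21 and overlapped for Inhbe, and the difference between the 2 genes was not tested. Over all genes, 50.3% were on the higher side, and at an unadjusted p under 0.05, 4.04% were higher and 3.39% lower. These shares apply beside each list below. Of the hand-written list of integrated stress response targets, 13 of 18 genes were tested, and 12 were on the higher side in the libraries labelled HuR hKO. Of these, 4 were at an unadjusted p under 0.05 and none at an adjusted p under 0.05. The median log2 fold change of the list was 0.44 and ranged from 0.28 to 0.58 when each mouse was left out in turn; it was 0.29 over the 12 genes with at least 10 counts in every library. Atf5, a transcription factor of this response, had 257 and 292 CPM against 472 and 403 CPM (log2 fold change 0.67, SE 0.15, adjusted p = 0.281). Trib3, a pseudokinase induced by ATF4, had 4.67 and 5.90 CPM against 8.44 and 12.1 CPM (log2 fold change 0.97, SE 0.25, adjusted p = 0.381). Nupr1, a stress-induced nuclear protein, stood at 0.527 and 0.672 CPM against 2.16 and 1.43 CPM, from counts of 7, 9, 31 and 27 (log2 fold change 1.56, SE 0.48, adjusted p = 0.511). Ddit4, an inhibitor of mTORC1 signaling, had 9.18 and 8.21 CPM against 10.7 and 23.9 CPM, so mouse 4 stood off (log2 fold change 1.01, SE 0.34, adjusted p = 0.548). The groups did not overlap for these 4 genes, which were named for their unadjusted p in the same fit. In the list, both libraries labelled HuR hKO lay above both controls for 5 of the 13 genes tested, beside 19.3% of all genes. The mRNA of Atf4 itself had 66.8 and 79.3 CPM against 79.7 and 67.6 CPM (log2 fold change 0.01, SE 0.15, adjusted p = 0.992). The study, by contrast, reports this mRNA as significantly increased in HuR hKO mice after the same time on WDSW, by RNA-seq and by real-time PCR. The reason for this difference was not tested. Ddit3 and Chac1, other targets of the pathway named after their values were seen, had log2 fold changes of 0.09 and −0.01.

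**Figure D3:**
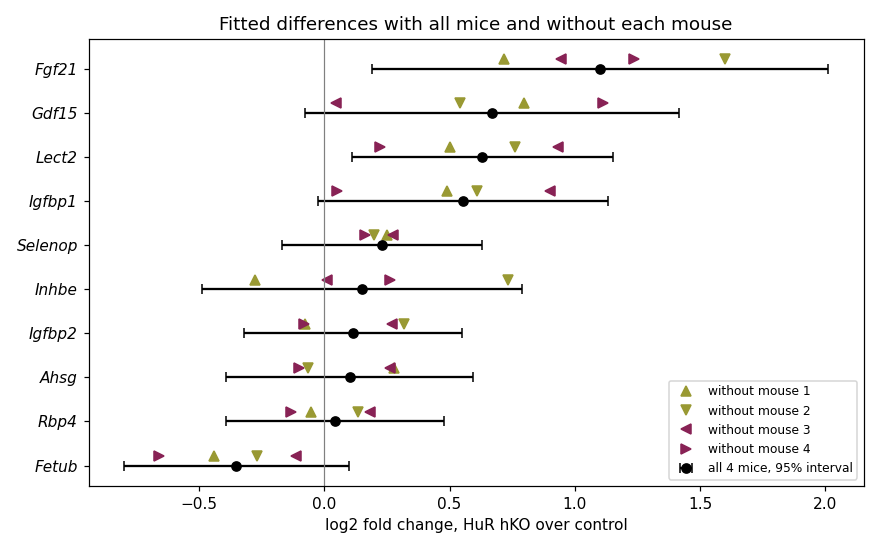
Fitted log2 fold change of each member (x axis, HuR hKO over control) with all 4 mice and its 95% interval in black, and without each mouse in turn as triangles. Only the intervals of Fgf21 and Lect2 lie wholly above 0; the values of Gdf15 without mouse 3 and of Igfbp1 without mouse 4 lie at 0.05, and Igfbp2, Ahsg, Inhbe and Rbp4 fall on both sides of 0.

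On the receptor side of Fgf21, Klb had 15.8 and 13.7 CPM in the controls and 20.4 and 23.5 CPM in the libraries labelled HuR hKO (log2 fold change 0.58, SE 0.16, adjusted p = 0.427). Fgfr4, the main FGF receptor of hepatocytes, had 44.3 and 36.0 CPM against 49.7 and 32.9 CPM, and Fgfr1, the receptor through which Fgf21 acts on fat tissue and brain, had between 5.63 and 6.79 CPM in all 4 livers. Ppara, the nuclear receptor that drives Fgf21 in fasting, had 66.7 and 64.7 CPM against 74.5 and 105.6 CPM (log2 fold change 0.46, adjusted p = 0.603), with mouse 4 the highest. Of the 12 genes of this list, all tested, 7 were on the higher side, 2 of them at an unadjusted p under 0.05 (Klb and Ppara), and the median log2 fold change was 0.04. The list of PPAR alpha targets was split, with 10 of 18 on the higher side and a median of 0.10, which ran from −0.18 without mouse 1 to 0.25 without mouse 2. Within it, Cyp4a14, a fatty acid omega-hydroxylase, had 158 and 71.2 CPM against 255 and 321 CPM (log2 fold change 1.33, SE 0.32, adjusted p = 0.352). Vnn1, a pantetheinase, went the other way with 65.2 and 83.5 CPM against 48.2 and 38.0 CPM (log2 fold change −0.79, SE 0.17, adjusted p = 0.268).

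Of the IGF binding proteins, Igfbp1 (ENSMUSG00000020429, chr11:7197782-7202546, plus strand) had 302 and 327 counts in the controls and 350 and 839 in the libraries labelled HuR hKO. In CPM the controls were 22.7 and 24.4, mouse 3 was 24.4 and mouse 4 was 44.5, so 1 liver was high and the other 3 were alike; mouse 3 exceeded mouse 2 by a margin far inside the counting error and no longer did so with DESeq2's or upper quartile size factors. The fitted log2 fold change was 0.55 (SE 0.25, adjusted p = 0.674), 0.05 without mouse 4 and 0.90 without mouse 3. Igfbp1 is the member with 2 insulin response sequences in its promoter. Of the 11 genes listed as FOXO1 and insulin-responsive, 5 were on the higher side and 6 on the lower, none at an unadjusted p under 0.05, and the median was −0.06. Igfbp2 (ENSMUSG00000039323, chr1:72824503-72852474, plus strand) had 6473 and 8479 counts against 7580 and 12865, or 487 and 633 CPM against 529 and 683 CPM. The groups overlapped and the fitted log2 fold change was 0.11 (SE 0.19, adjusted p = 0.920). In the wider IGF axis, 8 of 12 genes tested were on the higher side, with a median of 0.12. Igfbp3, the main IGF carrier of plasma, made in the liver largely by non-parenchymal cells, had 17.2 and 16.8 CPM against 23.9 and 24.7 CPM (log2 fold change 0.52, SE 0.14, adjusted p = 0.400). Igfals, which holds IGF and Igfbp3 in a ternary complex and is made by hepatocytes, had 111 and 95.1 CPM against 89.6 and 78.5 CPM (log2 fold change −0.30, SE 0.14, adjusted p = 0.684).

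The fetuins are neighbours on chromosome 16, and their fitted differences had opposite signs. Ahsg (ENSMUSG00000022868, chr16:22891277-22899449, plus strand) had 63859 and 50168 counts against 57028 and 97755, which is 4806 and 3746 CPM in the controls and 3978 and 5190 CPM in mice 3 and 4. The groups overlapped, with a log2 fold change of 0.10 (SE 0.21, adjusted p = 0.943), and an antisense gene (Gm30505) shares 3110 bases with it in the annotation. Fetub (ENSMUSG00000022871, chr16:22918334-22939778, plus strand) had 5166 and 5804 counts against 3726 and 7232, or 389 and 433 CPM against 260 and 384 CPM. Both controls lay above both livers labelled HuR hKO, although the counting intervals of mice 1 and 4 overlapped, and mouse 3 was the low one. The log2 fold change was −0.35 (SE 0.20, adjusted p = 0.728) and ran from −0.66 without mouse 4 to −0.12 without mouse 3. Hrg, histidine-rich glycoprotein of the same family, showed a like arrangement with 759 and 779 CPM against 474 and 710 CPM (log2 fold change −0.38, SE 0.20, adjusted p = 0.713). Of the 5 type 3 cystatins, 2 were on the higher side and 3 on the lower, with a median of −0.15 and none at an unadjusted p under 0.05.

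Lect2 (ENSMUSG00000021539, chr13:56542464-56548502, minus strand) had 1287 and 1538 counts in the controls against 1769 and 3847 in the libraries labelled HuR hKO. In CPM these were 96.9 and 115 against 123 and 204, so the groups did not overlap, mouse 3 stood close to mouse 2, and mouse 4 was 1.65-fold above mouse 3. The fitted level was 1.55 times that of the controls (log2 fold change 0.63, SE 0.23, 95% interval of the fold 1.08 to 2.22, adjusted p = 0.574). Without mouse 4 the log2 fold change was 0.22 and without mouse 3 it was 0.93, and its unadjusted p was not under 0.05 without mouse 1 or without mouse 4. Of its known receptors, Tie1 of endothelial cells had a log2 fold change of 0.19 and Met, the receptor of hepatocyte growth factor, −0.15, both named after their values were seen and neither at an unadjusted p under 0.05.

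Selenop (ENSMUSG00000064373, chr15:3268547-3280508, plus strand) had 54050 and 52055 counts against 63824 and 91759. Its 4 levels were close together, 4068 and 3886 CPM in the controls and 4453 and 4871 CPM in mice 3 and 4, without overlap of the groups. The difference was small, with a fitted level 1.17 times that of the controls (log2 fold change 0.23, SE 0.17, adjusted p = 0.817), and it kept its sign without each mouse in turn (0.16 to 0.28). The end of the gene overlaps Ccdc152 on the other strand by 439 bases, and that gene had at most 1 count in a library. Among 21 tested genes of selenium handling and selenoproteins, 16 were on the higher side with a median of 0.11. The only one at an unadjusted p under 0.05 was Sepsecs, which makes selenocysteine on its tRNA, with 59.7 and 68.5 CPM against 51.1 and 51.5 CPM (log2 fold change −0.32, SE 0.13, adjusted p = 0.639). Sephs2, which makes the selenium donor for that step, had 433 and 389 CPM against 430 and 523 CPM.

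Rbp4 (ENSMUSG00000024990, chr19:38116629-38125281, minus strand) had 40785 and 46365 counts against 42646 and 70630, or 3069 and 3462 CPM against 2975 and 3750 CPM. The livers labelled HuR hKO enclosed the controls, and the log2 fold change of 0.04 (SE 0.19, adjusted p = 0.975) had a 95% interval of the fold from 0.761 to 1.39. Its partner Ttr lay between 5412 and 5910 CPM in all 4 livers. In the list of retinol transport and storage genes, 9 of 12 tested were on the higher side with a median of 0.05, and Rdh16, a retinol dehydrogenase, had 79.1 and 100.1 CPM against 134 and 122 CPM (log2 fold change 0.51, SE 0.15, adjusted p = 0.470).

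In the activin family, Inhbc, the other liver-enriched beta subunit, had 82.5 and 61.6 CPM against 81.5 and 64.2 CPM, so unlike Inhbe its level in mouse 1 was not low. Follistatin (Fst), which binds and blocks activins, had low counts, 4, 14, 13 and 9. Of the 15 genes tested, 6 were on the higher side, and Fstl1, a follistatin-like protein of mesenchymal cells, had 4.29 and 3.21 CPM against 5.16 and 7.91 CPM (log2 fold change 0.81, SE 0.29, adjusted p = 0.574).

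A further list held genes for other proteins described as hepatokines, none of them at an adjusted p under 0.05. Of 20 listed, 18 were tested, 11 of them on the higher side, and the median log2 fold change was 0.03. Tsku (tsukushi) had 193 and 255 CPM against 106 and 121 CPM (log2 fold change −0.98, SE 0.17, adjusted p = 0.137). Enho, which encodes adropin, had 1.96 and 2.24 CPM against 4.81 and 8.71 CPM (log2 fold change 1.70, SE 0.35, adjusted p = 0.207). Itih3, a heavy chain of inter-alpha-trypsin inhibitor, had 439 and 320 CPM against 634 and 641 CPM (log2 fold change 0.75, SE 0.18, adjusted p = 0.333). Angptl6, an angiopoietin-like protein, had 14.1 and 15.6 CPM against 19.8 and 19.6 CPM (log2 fold change 0.41, SE 0.15, adjusted p = 0.574). The groups did not overlap for these 4 genes, but they were named for their unadjusted p in the same fit. In the list, both libraries labelled HuR hKO lay above both controls for 4 genes, beside 19.3% of all genes. They lay below both controls for 1 gene, beside 18.8%.

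**Figure D4:**
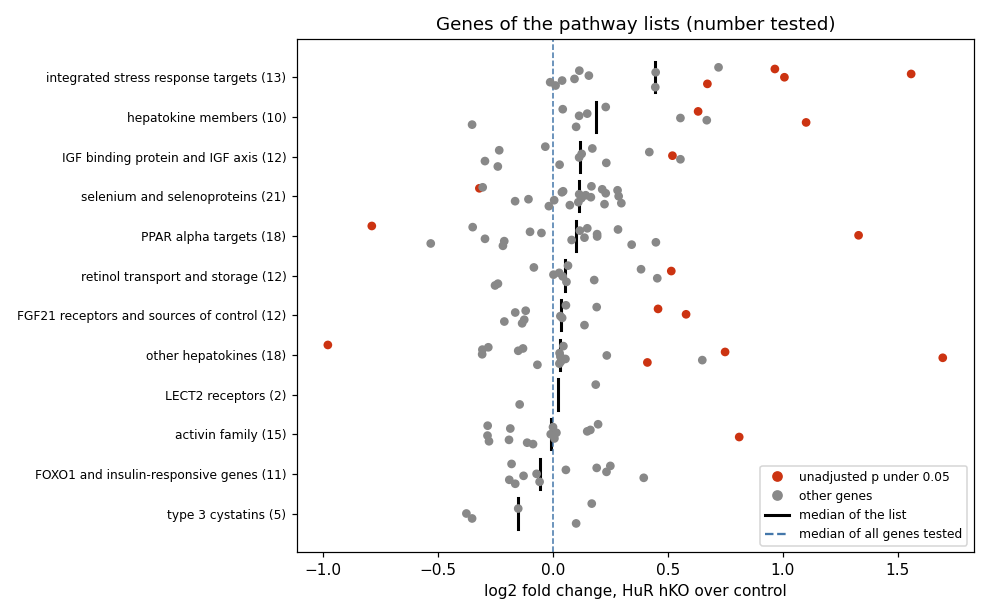
Fitted log2 fold change (x axis, HuR hKO over control) of each tested gene of the 12 lists, with the number tested in brackets, black bars at the list medians and a dashed line at the median of all genes. Genes at an unadjusted p under 0.05 are red; the integrated stress response list has the highest median (0.44) and the type 3 cystatins the lowest (−0.15), and no gene shown had an adjusted p under 0.05.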

How the data were processed

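Liver RNA-seq libraries of 4 mice were compared, 2 labelled control and 2 labelled HuR hKO. The authors deposited 1 table of whole-number counts per Ensembl gene, 1 column for each mouse, without normalization. The submitters' processing notes name RSEM and GRCm38 without versions; RSEM estimates counts that need not be whole, and how the whole numbers were made, how reads shared by several genes were treated and whether strand was used are not given in the sources used here. Symbols were found for 46005 of 46603 identifiers, and coordinates and exon lengths came from GENCODE M21.

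Genes were kept by edgeR's filter (minimum count 10, minimum total 15), scaled with TMM factors (0.957 to 1.04) and tested with the quasi-likelihood test of edgeR 4.0.16 (R 4.3.3), with Benjamini-Hochberg adjustment over 13001 genes. The study's methods name Student's test for 2 groups in general; a count model was used here since the values are counts. The test was tested on simulated data. Levels are CPM, or CPM per kilobase of exon (RPKM) for comparing genes. Alternatives used DESeq2 1.42.0 and limma 3.58.1, and figures used matplotlib 3.10.9. Every pair of libraries differed by more than counting noise (chi-square per degree of freedom 21.2 to 32.7). Poisson intervals are at the 95% level and cover counting error only.

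The members and the gene lists were chosen with earlier results of these data known. All members were named, with Elavl1, the partners of members (Klb, Fgfr1, Fgfr4, Ttr, Igfals, Hrg, Inhbc, Fst, Sephs2) and at most 5 genes of each list at an unadjusted p under 0.05. For the UTRs, 1 protein-coding transcript per gene was taken, an APPRIS principal one where given and then the longest. The result of 1 marker gene is not reported here.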

Additional observations from a re-analysis of the deposited data

How the results depend on the processing

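No member had an adjusted p under 0.05 under any of the 13 alternatives run, 9 of other scaling, filter or test and 4 leaving out a mouse, over which the number of all genes called ran from 0 to 161. At an unadjusted p under 0.05, 2 members were found with the main settings, 3 with library totals only and with edgeR's exact test, and 5 with no filter on low counts (Fgf21, Lect2, Igfbp1, Gdf15 and Fetub); without each mouse in turn the number ran from 0 (without control mouse 1) to 3, and the genes differed: Fgf21, Lect2 and Inhbe without mouse 2, Igfbp1 and Lect2 without mouse 3, and Gdf15 and Fetub without mouse 4. With DESeq2's Wald test the 2 were Igfbp1 and Lect2. Signs of all members held under the 9 alternatives of scaling, filter and test. Leaving out a mouse turned the sign of Igfbp2 (−0.0763 without mouse 1 and −0.0821 without mouse 4, up to 0.32 without mouse 2), Ahsg (−0.07 without mouse 2 and −0.10 without mouse 4, up to 0.28 without mouse 1), Inhbe (−0.28 without mouse 1, up to 0.73 without mouse 2) and Rbp4 (−0.06 without mouse 1 and −0.13 without mouse 4, up to 0.18 without mouse 3). Over leaving out each mouse, the log2 fold change of Fgf21 ran from 0.72 to 1.60, that of Lect2 from 0.22 to 0.93, and the members' count on the higher side from 6 to 9. The list medians of the FGF21 receptor, FOXO1, LECT2 receptor, PPAR alpha, activin and retinol lists fell on both sides of 0 when each mouse was left out, and those of the other 6 lists kept their sign. Of the other list genes, 0 of 127 were called with the main settings, 8 with no filter (Atf5, Cyp4a14, Ddit4, Enho, Itih3, Trib3, Tsku and Vnn1), 6 with the exact test, 4 with DESeq2's Wald test and between 0 and 2 without each mouse. The cause was not tested. No paired analysis was possible because the mice are numbered 1 to 4 and the groups share no number. With a mouse left out, its group holds 1 mouse, which is assumed to vary like the other group. Fgf21, with at least 13 counts a library, is the member whose depth limits precision most.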
